A study of Mus musculus with 8 samples.

Results

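NRF2, encoded by Nfe2l2, is the transcription factor that switches on antioxidant and detoxification genes, and the genes described here are NRF2 itself, its inhibitor KEAP1 and 8 enzymes that remove reactive oxygen species or supply the reducing power to do so. The 10 genes, chosen by name, were Nfe2l2, Keap1, Nqo1, Gclc, Gclm, Txnrd1, Srxn1, Sod2, Cat and Gpx1, and all 10 were among the 22184 genes with a value in the table. They were read in liver RNA on 8 Affymetrix MoGene 2.0 ST arrays, with 1 wild-type male mouse per array, in 4 PBS and 4 IL1B mice. The mice had been bought at 7 weeks of age and acclimated for 2 weeks. The IL1B group had been given recombinant mouse interleukin 1 beta at 0.5 µg per mouse into the peritoneum, the PBS group vehicle alone, and livers were taken after 3 h. The labels give the strain as C57BL/6J in PBS but as C57BL/6 x CBA in IL1B, and the series description names C57BL/6J for both groups. Strain, as labelled, and treatment cannot be told apart. Nnt, which C57BL/6J mice carry in a defective form, had a log2 value of 9.62 ± 0.33 (SD, n = 4) in PBS and 9.29 ± 0.55 in IL1B (limma, adjusted p = 0.506), and H2-Ea, a class II gene that differs between inbred strains, was at background on all 8 arrays. Values are log2 RMA intensities, on which a difference of 1 is a doubling, and they rank samples for a gene but not genes against each other.

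KEAP1 holds NRF2 in the cytosol and hands it to a CUL3 ubiquitin ligase for destruction. Oxidants and electrophiles modify cysteines of KEAP1, after which NRF2 accumulates, pairs with small MAF proteins and binds antioxidant response elements in the promoters of its targets. Much of this control acts on the NRF2 protein, which the arrays do not measure. In liver the targets include the glutathione-making enzyme glutamate-cysteine ligase (Gclc and Gclm), thioredoxin reductase (Txnrd1), sulfiredoxin (Srxn1) and a quinone reductase (Nqo1). Sod2, the mitochondrial superoxide dismutase, is also a classical target of NF-kB, the factor that IL1B signalling activates.

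The promoter windows of the 3 members that changed and of Gclm, whose groups separated narrowly in the other direction, are printed because they differ in the motifs they hold. The groups of Gpx1 also separated in that direction, and its window held none of the motifs. That window and the one of Nfe2l2, which held 1 match, are not printed. Each window runs from 250 bases before to 50 bases after a RefSeq start site on mouse build GRCm38.p6 and is written 5′ to 3′ on the gene's own strand. Capitals mark the motif matches named after the sequences.
Txnrd1, second of its 3 start sites, chr10:82858956-82859255, plus strand: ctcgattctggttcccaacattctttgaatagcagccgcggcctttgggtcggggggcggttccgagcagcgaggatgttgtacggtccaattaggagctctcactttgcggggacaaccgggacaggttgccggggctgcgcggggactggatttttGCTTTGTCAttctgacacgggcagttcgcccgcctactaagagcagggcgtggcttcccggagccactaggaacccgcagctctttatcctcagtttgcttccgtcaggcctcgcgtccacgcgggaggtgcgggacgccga
Srxn1, chr2:152105274-152105573, plus strand: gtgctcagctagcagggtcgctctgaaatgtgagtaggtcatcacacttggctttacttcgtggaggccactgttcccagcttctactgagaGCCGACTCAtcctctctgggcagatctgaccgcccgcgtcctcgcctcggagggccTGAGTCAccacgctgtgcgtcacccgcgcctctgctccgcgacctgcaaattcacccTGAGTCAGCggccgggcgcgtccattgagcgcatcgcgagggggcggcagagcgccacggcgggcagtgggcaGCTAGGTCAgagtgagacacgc
Sod2, chr17:13007589-13007888, plus strand: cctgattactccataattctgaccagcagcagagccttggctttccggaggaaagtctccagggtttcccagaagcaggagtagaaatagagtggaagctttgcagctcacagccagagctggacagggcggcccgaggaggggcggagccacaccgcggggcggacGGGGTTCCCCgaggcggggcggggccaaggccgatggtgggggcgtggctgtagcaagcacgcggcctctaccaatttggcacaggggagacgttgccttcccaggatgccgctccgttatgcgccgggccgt
Gclm, chr3:122245307-122245606, plus strand: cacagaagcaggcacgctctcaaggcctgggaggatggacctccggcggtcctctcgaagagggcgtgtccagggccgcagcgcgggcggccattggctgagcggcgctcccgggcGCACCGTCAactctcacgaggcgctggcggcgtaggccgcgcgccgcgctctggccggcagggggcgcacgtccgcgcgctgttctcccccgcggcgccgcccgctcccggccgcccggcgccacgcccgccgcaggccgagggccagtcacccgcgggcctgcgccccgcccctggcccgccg

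The antioxidant response element core was searched as TGACNNNGC on both strands. Of the 11 windows of 9 members, 4 held it, 1 each of Nfe2l2, Gclm, Txnrd1 and Srxn1, against 12.4% of 32851 mouse promoter windows of the same length. The Txnrd1 match lay 92 bases before the second start site and reads GCTTTGTCA, the element on the opposite strand. The Gclm match, GCACCGTCA, lay 134 bases before the start site, and the Nfe2l2 match, TGACTCCGC, 240 bases before it. The Srxn1 window held the most matches. Among them were GCTAGGTCA 28 bases after the start site and 2 matches to the variant spelling TGAGNNNGC, a spelling found in 17.6% of all windows. It also held 2 matches to the AP-1 site TGANTCA, found in 7.81% of all windows, and the AP-1 match that begins 45 bases before the start site lies inside one of the variant element matches, TGAGTCAGC. In the Sod2 window, none of these spellings was found, while the kappa-B consensus, the binding motif of NF-kB, matched GGGGTTCCCC 83 bases before the start site, a consensus found in 4.51% of all windows. The windows of Keap1, Nqo1, Cat and Gpx1 and the other 2 of Txnrd1 held none of the motifs, which says only that those letters are not in these windows. Motif matches are letters in the reference and not measured binding.

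**Figure D1:**
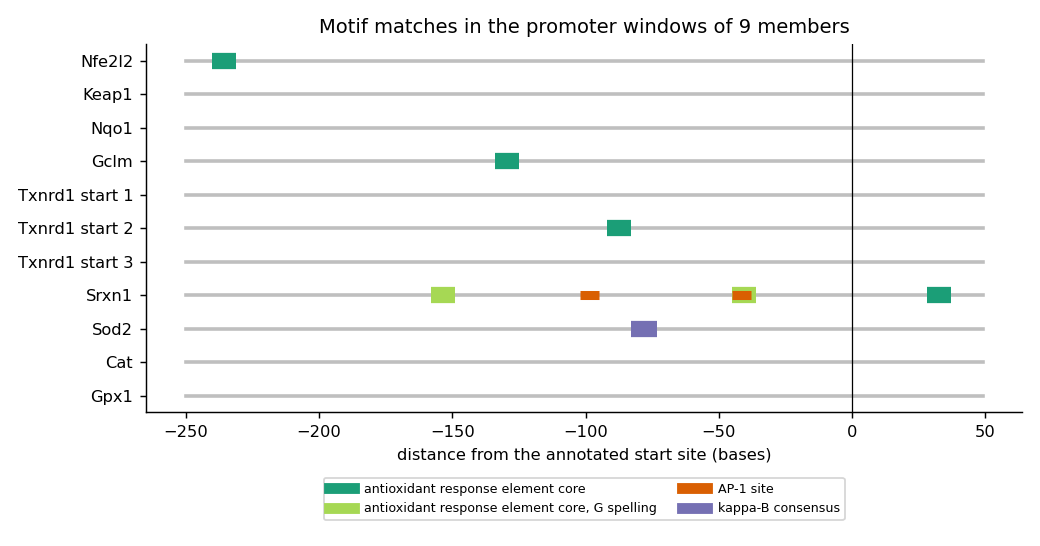
Motif matches in the promoter windows of the 9 members with a RefSeq window, by distance in bases from the annotated start site (0). Grey lines are the windows and coloured blocks the matches. The 5 matches in Srxn1 include those to the variant spelling, which was added after the windows were seen. TGAGTCAGC, a variant match, overlaps an AP-1 match. Sod2 holds a single kappa-B match, and Keap1, Nqo1, Cat and Gpx1 hold none.

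Txnrd1, Srxn1 and Sod2 rose 3 h after IL1B, by 3.13-fold, 2.25-fold and 2.33-fold, and none of the other 7 members passed the test in either direction. The 3 risers encode enzymes with different tasks. TXNRD1 reduces thioredoxin in the cytosol, SRXN1 repairs overoxidized peroxiredoxins, and SOD2 turns superoxide into hydrogen peroxide in mitochondria. In limma, with adjustment over all 22184 genes, 0.05 was the highest adjusted p at which a change was called. By that rule 3 of 10 members were called, against 12.5% of all genes. All 3 were higher, against 7.19% of all genes, and 0 of 10 were lower, against 5.32%. Over the 9972 genes that lay at neither end of the array's scale in both groups, 15.2% were called higher and 9.5% lower. The median log2 fold change of the 10 members was 0.10, with Cat, at the ceiling on every array, entering as 0. It was -0.06 over all genes and 0.04 over the 9972 genes.

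**Figure D2:**
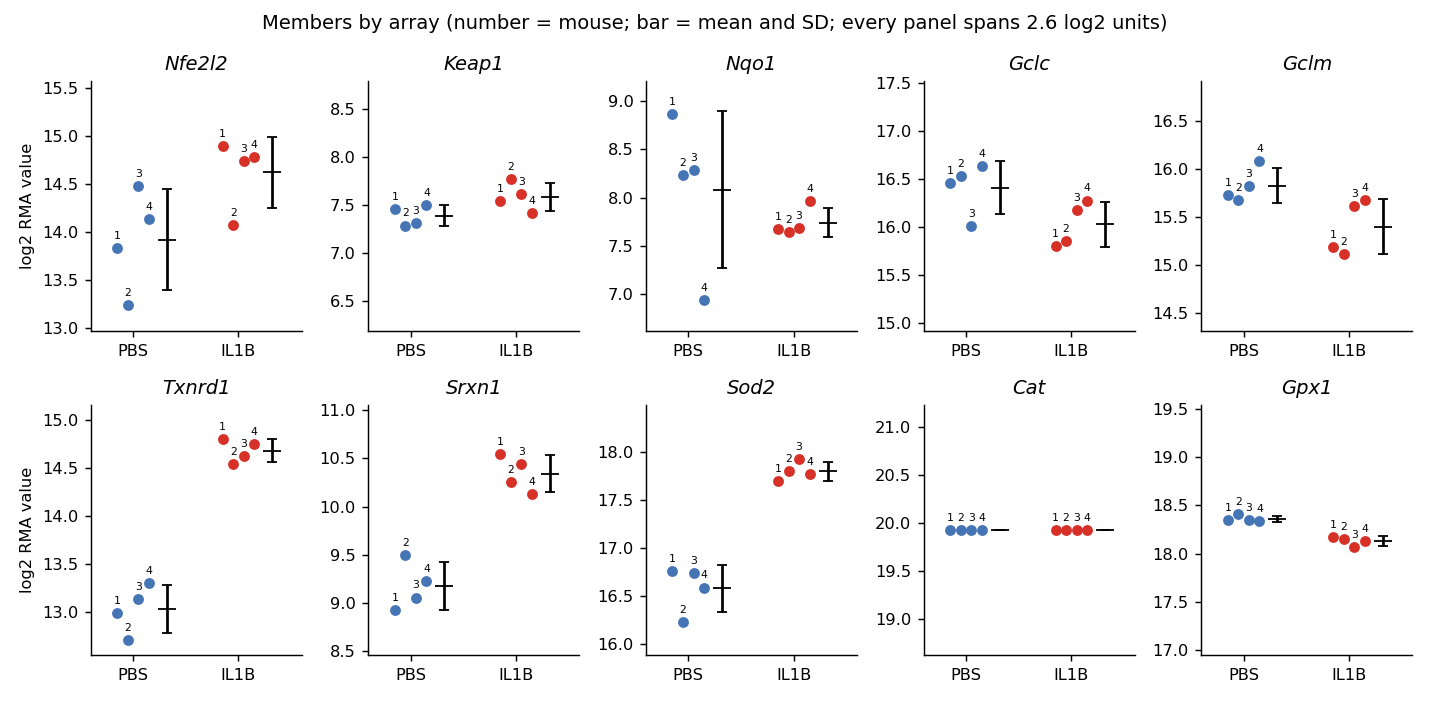
Log2 RMA value of each member on each array (blue PBS, red IL1B, numbers are the mice), with the mean and SD of each group (n = 4) beside the points. All panels span 2.6 log2 units, so that the separation of Txnrd1, Srxn1 and Sod2 can be set against the overlap of Nfe2l2, Keap1, Nqo1 and Gclc and the flat ceiling values of Cat.

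Nfe2l2 mRNA was on average higher after IL1B without passing the test. Its log2 values were 13.83, 13.24, 14.47 and 14.13 in PBS mice 1 to 4 and 14.89, 14.08, 14.73 and 14.78 in IL1B mice 1 to 4. The groups overlapped because IL1B mouse 2 lay below PBS mice 3 and 4, and PBS mouse 2 was the lowest of all. The means were 13.92 ± 0.52 (SD, n = 4) and 14.62 ± 0.37, a log2 fold change of 0.70 ± 0.28 (SE; 95% interval 0.08 to 1.32; adjusted p = 0.139). Without PBS mouse 2 it was 0.47.

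Keap1, which encodes the inhibitor, showed no detectable change. The array reads it with 2 features. The brighter went from 9.81 to 9.97 in group means, and the other was at background on all arrays, at 4.97 and 5.20. Their mean, the value used for the gene, was 7.46, 7.29, 7.31 and 7.50 in PBS and 7.55, 7.77, 7.62 and 7.42 in IL1B, with overlapping groups. The log2 fold change was 0.20 ± 0.13 (95% interval -0.09 to 0.49, adjusted p = 0.374), a value that the dim feature enters. The brighter feature alone gave 0.16 ± 0.14 (95% interval -0.15 to 0.47, adjusted p = 0.506). Within each mouse, the log2 difference between Nfe2l2 and Keap1 was 6.53 ± 0.51 in PBS and 7.03 ± 0.49 in IL1B, and this shift of 0.50 did not pass an exact permutation test (p = 0.257, adjusted p = 0.377 over 6 pairs).

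Txnrd1 had the largest change among the members. It stood at 12.99, 12.71, 13.13 and 13.30 in PBS and at 14.80, 14.54, 14.63 and 14.75 in IL1B. The lowest IL1B mouse was 1.24 log2 units above the highest PBS mouse, and the 4 IL1B mice lay close together. The means of 13.03 ± 0.25 and 14.68 ± 0.12 differed by 1.65 ± 0.15 on the log2 scale (95% interval 1.30 to 1.99, or 2.47-fold to 3.98-fold; adjusted p = 0.000221). That log2 fold change was above those of 95.9% of the 9972 genes off the ends of the scale. The mitochondrial thioredoxin reductase Txnrd2 was not called. It went from 8.57 ± 0.34 to 8.47 ± 0.44 (log2 fold change -0.10, 95% interval -0.66 to 0.45), and the within-mouse difference between Txnrd1 and Txnrd2 was 4.07, 4.24, 4.39 and 5.16 in PBS and 6.60, 6.52, 5.99 and 5.74 in IL1B. The groups of these differences did not overlap. Their shift of 1.75 had the smallest p that the exact permutation test allows, 0.0286, and an adjusted p of 0.0857 over the 6 pairs. In this design a pair can pass 0.05 after adjustment only if at least 4 of the 6 pairs have that smallest p, so the missed threshold says little about this pair.

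Srxn1 rose from a lower part of the scale. Its log2 values were 8.92, 9.50, 9.05 and 9.22 in PBS and 10.55, 10.25, 10.44 and 10.13 in IL1B. All 4 IL1B mice lay above all 4 PBS mice, with a gap of 0.63 between IL1B mouse 4 and PBS mouse 2. The means of 9.17 ± 0.25 and 10.34 ± 0.19 differed by 1.17 ± 0.16 (95% interval 0.80 to 1.54, adjusted p = 0.00202).

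Nqo1, a quinone reductase often used as a readout of NRF2, was not called. Its log2 values were 8.87, 8.24, 8.29 and 6.94 in PBS and 7.67, 7.64, 7.68 and 7.96 in IL1B. PBS mouse 4 was the lowest and PBS mouse 1 the highest of all, and the IL1B mice fell between them. The log2 fold change was -0.34 ± 0.35 (95% interval -1.12 to 0.43, adjusted p = 0.582), an interval that reaches from a drop past a halving to a small rise. The within-mouse difference between Nqo1 and Srxn1 was -1.09 ± 0.94 in PBS and -2.60 ± 0.31 in IL1B, a shift of -1.51 (exact permutation p = 0.0571, adjusted p = 0.114 over 6 pairs). PBS mouse 4, at -2.28, overlapped the IL1B group through IL1B mouse 4, at -2.16.

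The subunits of glutamate-cysteine ligase, which sets the pace of glutathione synthesis, both averaged lower after IL1B, and neither passed the test. Gclc, the catalytic subunit, was at 16.46, 16.53, 16.01 and 16.64 in PBS and at 15.81, 15.85, 16.17 and 16.28 in IL1B. PBS mouse 3 lay below IL1B mice 3 and 4, so the groups overlapped. The log2 fold change was -0.38 ± 0.18 (95% interval -0.78 to 0.02, adjusted p = 0.211).

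Gclm, the modifier subunit, was at 15.73, 15.68, 15.82 and 16.08 in PBS and at 15.19, 15.12, 15.62 and 15.68 in IL1B. The groups did not overlap, but by a margin of 0.0058 log2 units, between PBS mouse 2 and IL1B mouse 4. The log2 fold change was -0.43 ± 0.17 (95% interval -0.81 to -0.04, adjusted p = 0.145). In both subunits the lowest mice were IL1B 1 and IL1B 2. Within mice, the log2 difference between Gclc and Gclm was 0.58 ± 0.29 in PBS and 0.62 ± 0.08 in IL1B, a shift of 0.05 (exact permutation p = 0.829, adjusted p = 0.829 over 6 pairs).

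Sod2 rose in an already bright range. It was at 16.75, 16.23, 16.74 and 16.59 in PBS and at 17.69, 17.80, 17.92 and 17.77 in IL1B. The groups were 0.94 log2 units apart at their nearest points, and PBS mouse 2 was the lowest. The means of 16.58 ± 0.24 and 17.80 ± 0.10 differed by 1.22 ± 0.15 (95% interval 0.88 to 1.55, adjusted p = 0.00102). Sod1, the cytosolic superoxide dismutase, went from 18.98 ± 0.21 to 18.64 ± 0.06, a log2 fold change of -0.34 with an adjusted p of 0.155. The within-mouse difference between Sod2 and Sod1 was -2.40 ± 0.40 in PBS and -0.85 ± 0.09 in IL1B. This shift of 1.55 again had the smallest exact p of 0.0286 and an adjusted p of 0.0857. Sod1 is close to the top of the scale, where values within 1 log2 unit of the ceiling of 19.93 were treated as saturated.

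The peroxide-removing enzymes gave little information at this end of the scale. Cat, catalase, was at the ceiling of 19.93 on all 8 arrays, so its change was not measured. Gpx1, a cytosolic and mitochondrial glutathione peroxidase, was at 18.35, 18.41, 18.35 and 18.34 in PBS and at 18.18, 18.15, 18.07 and 18.13 in IL1B. All IL1B mice lay below all PBS mice, by 0.17 at the nearest points (exact permutation p = 0.0286). The log2 fold change was -0.23 ± 0.11 (95% interval -0.48 to 0.01, adjusted p = 0.214). limma draws the variance of a gene with SDs as small as these (0.03 and 0.05) towards that of the other genes, and an effect of the nearby ceiling on this difference was not tested. Gpx4, which reduces lipid peroxides, had a log2 fold change of -0.09, and the shift between Gpx1 and Gpx4 was -0.15 (exact permutation p = 0.314, adjusted p = 0.377). The groups of 5 of the 10 members did not overlap, Gclm and Gpx1 among them, against 19% of all genes. That share includes 12164 genes at background in both groups, as no member was.

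**Figure D3:**
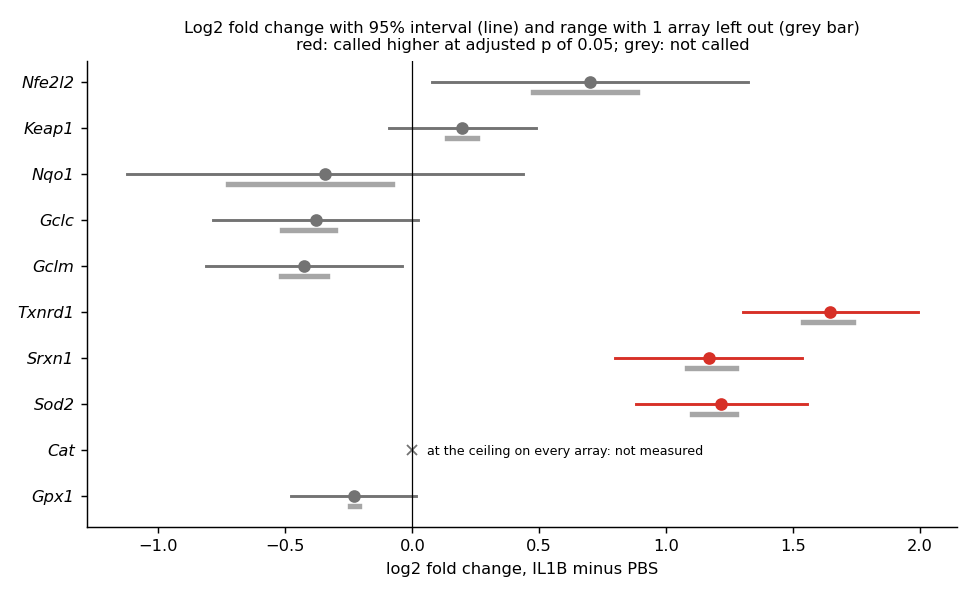
Log2 fold change (IL1B minus PBS) of each member with its 95% interval (thin line) and the range when each array was left out in turn (grey bar below). Red marks the 3 called genes, the lowest of whose intervals starts at 0.80 (Srxn1), and the cross marks Cat, which was at the ceiling on all arrays.

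At an adjusted p of 0.15, the cutoff in the study's methods, Nfe2l2 and Gclm were added, which makes 5 members called, against 23.6% of all genes. Of these, 4 were higher, against 11.9%, and 1 lower, against 11.7%. The calls of Txnrd1, Srxn1 and Sod2 held in each fit that left out 1 array. Their lowest log2 fold changes in those fits were 1.54, 1.08 and 1.10.

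Leukocyte markers differed strongly between the IL1B mice. The log2 of the summed level of 8 neutrophil markers was 7.49 to 8.09 in PBS and 14.44, 15.02, 10.65 and 10.41 in IL1B mice 1 to 4, and 5 of the 8 were called higher. The call of 1 of these, Ly6g, was lost in 6 of 8 fits with 1 array left out (adjusted p up to 0.102). The same sum over 4 monocyte markers was 10.99 to 12.87 in PBS and 14.72, 15.52, 11.98 and 12.02 in IL1B, with 2 of 4 called higher, of which Ccr2 lost its call in 6 of 8 such fits (adjusted p up to 0.0879). None of 6 Kupffer cell markers was called. Their sums were 13.08 to 14.25 in PBS and 16.40, 15.52, 13.25 and 12.77 in IL1B mice 1 to 4. They too were higher in IL1B mice 1 and 2, and arrival of cells was not tested. The tissue label was borne out by hepatocyte markers, of which 4 of 6 were saturated in both groups, while the defining T and NK cell markers, 5 of 5, and the 3 B cell markers measured were at background in both. In whole liver, fewer cells of a type and less RNA per cell cannot be told apart.

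Across these 4 IL1B mice the SDs of the members that rose were 0.12 for Txnrd1, 0.19 for Srxn1 and 0.10 for Sod2. Without IL1B mice 1 and 2, the same 3 members were called. Txnrd1 then had a log2 fold change of 1.65 (adjusted p = 0.00309), Srxn1 one of 1.11 (adjusted p = 0.0191) and Sod2 one of 1.27 (adjusted p = 0.00942). The neutrophil sums of IL1B mice 3 and 4, 10.65 and 10.41, were still above the PBS range, and the part of leukocyte RNA in the rise of the 3 members was not tested. Gclc and Gclm differed less between the groups in that fit. Their log2 fold changes went from -0.38 to -0.18 and from -0.43 to -0.18, with adjusted p of 0.674 and 0.614. The lowest values of both genes were in the mice with the highest neutrophil and monocyte markers, whose part in these differences was not tested.

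**Figure D4:**
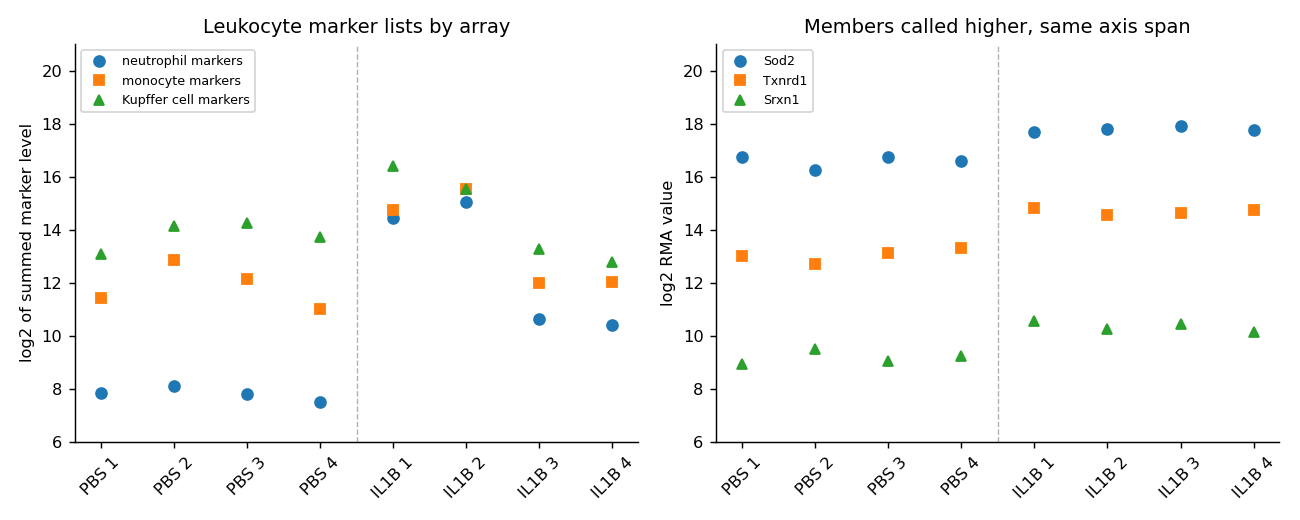
Log2 of the summed level of neutrophil, monocyte and Kupffer cell markers (left) and log2 RMA value of the 3 members called higher (right) on each array, on axes of the same span. IL1B mice 1 and 2 stand above IL1B mice 3 and 4 in the left panel (neutrophil sums of 14.44 and 15.02 against 10.65 and 10.41) and are close to them in the right panel.

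The wider NRF2 and redox pathway was read through 8 lists of 130 distinct genes, of which 119 were measured, 17 (14.3%) were called higher and 12 (10.1%) lower. These shares are above the 7.19% and 5.32% of all genes. Over genes off the ends of the scale, 16.5% of 103 pathway genes were higher and 11.7% lower, close to the 15.2% and 9.5% of all such genes. No list was tested as a set. Of the partners, competitors and turnover factors of NRF2, 6 of 17 (35.3%) were higher and 1 (5.88%) lower, with a median log2 fold change of 0.55. Syvn1, also called HRD1, an endoplasmic reticulum ubiquitin ligase that can degrade NRF2, rose by 3.48 ± 0.35 on the log2 scale (adjusted p = 0.000322). Bach1, a repressor that occupies antioxidant response elements, rose by 1.29 ± 0.16, and Sqstm1, encoding the autophagy adaptor p62 that draws KEAP1 away from NRF2, by 0.86 ± 0.16. Bach2, a related repressor known mainly from lymphocytes, fell by at least 1.60-fold, as it was at background in IL1B. Mafk, a small MAF partner, had a log2 fold change of 0.75, a call lost in 7 of 8 fits with 1 array left out.

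Of 34 other known NRF2 targets listed, 28 were measured. Gsta1, Gsta2, Prdx1, Ftl1, G6pdx and Tkt were not. Of the 28, 4 (14.3%) were higher and 2 (7.14%) lower, with a median of -0.12. With 1 array left out, 3 to 4 were higher and 1 to 3 lower. Without IL1B mice 1 and 2, a fit with fewer samples, 2 were higher and 1 lower. Hmox1, haem oxygenase, rose by 3.03 ± 0.46 (adjusted p = 0.00313) from values of 8.16 to 10.70 in PBS to 12.15 to 12.86 in IL1B, and Pgd, which makes NADPH in the pentose phosphate pathway, by 1.42 ± 0.30. Abcc2, a canalicular export pump for glutathione conjugates, had a log2 fold change of -0.995 ± 0.18, and Osgin1, an oxidative stress-induced growth inhibitor, one of -2.47 ± 0.61. Osgin1 was no longer called in the fits without PBS mouse 1, PBS mouse 4, IL1B mouse 1 or IL1B mouse 2 (adjusted p up to 0.082). Slc7a11, Cbr3, Akr1b8 and Gpx2 were at background in both groups, and 1 of the 28 targets was saturated in both.

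The members Txnrd1 and Srxn1, both higher, are not in the next list, of the thioredoxin system and related genes. None of its thioredoxins or thioredoxin reductases was called, and Prdx1, Prdx5 and Prdx6 were not measured. Of 16 thioredoxins, peroxiredoxins, methionine sulfoxide reductases and sestrins, 0 were called higher and 5 (31.2%) lower, with a median of -0.24. With 1 array left out, 3 to 4 were lower. Txnip, which binds and inhibits thioredoxin, fell by 2.71 ± 0.28 on the log2 scale (adjusted p = 0.000413), and the methionine sulfoxide reductases Msrb2 and Msrb1 fell by 1.15 and 0.79. Sesn3, a sestrin, and Prdx4, a peroxiredoxin of the secretory pathway, had log2 fold changes of -0.82 and -0.43. With 1 array left out, the call of Sesn3 was lost in 6 of 8 fits and that of Prdx4 in 8 of 8. Txn1, the substrate of TXNRD1, had a log2 fold change of 0.19 and was not called.

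Of 18 genes of glutathione turnover, 3 were at background in both groups. Among the 18, 3 (16.7%) were higher and 2 (11.1%) lower, with a median of -0.25. With 1 array left out, 1 to 3 were higher, fewest without PBS mouse 4, and 0 to 3 lower, fewest without PBS mouse 1. Gsr, glutathione reductase, rose by 0.69 ± 0.16, a call lost without PBS mouse 4 or IL1B mouse 3 (adjusted p up to 0.0539). Ggt6, a gamma-glutamyltransferase family member, rose by 1.45 ± 0.17 and Chac2, a glutathione-degrading enzyme, fell by 1.24 ± 0.27, a call lost without PBS mouse 1 (adjusted p = 0.054). Hagh, a glyoxalase, at -0.73, and Slc3a2, an amino acid transporter subunit, at 0.79, lost their calls in 5 of 8 such fits each. Among 11 other superoxide dismutase and glutathione peroxidase genes, 4 were at background in both groups. None was called higher and 1 lower (9.09%, or 14.3% of the 7 off the ends of the scale), with a median of -0.12. That gene was Ccs, the copper chaperone for SOD1, which fell by 1.00 ± 0.17 (adjusted p = 0.00494).

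Of 10 NADPH-supplying genes, 2 (20%) were higher and 0 lower, Pgd and Nadk, an NAD kinase, with a median of -0.15. The log2 fold change of Nadk was 0.50, a call that 7 of the 8 fits without 1 array did not make. TXNRD1 and GPX1 are selenoproteins, and of 14 further selenoprotein and selenocysteine machinery genes 2 (14.3%) were higher and 1 (7.14%) lower, with a median of 0.00. Pstk, a kinase of the selenocysteine pathway, fell by 1.14 ± 0.19, while Selenos and Selenot, both of the endoplasmic reticulum, had log2 fold changes of 1.04 and 0.62 and lost their calls in 2 and 4 of the 8 fits.

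Genes that produce reactive oxygen or nitrogen species had 2 of 12 (16.7%) called higher and 0 lower. Without IL1B mouse 4, Cybb, Cyba and Rac2, parts of the phagocyte NADPH oxidase, were called too, 5 in all. Without IL1B mouse 3, Nox4, another NADPH oxidase, was called lower. Their median of 1.66 became 0.90 when values below background were raised to it. Xdh, xanthine oxidoreductase, a source of superoxide, rose by 1.85 ± 0.15 (adjusted p = 0.000115), from 12.45 to 12.97 in PBS to 14.41 to 14.79 in IL1B. Nos2, inducible nitric oxide synthase, was at background in PBS and rose by at least 3.67-fold. Cybb, which forms the catalytic core of that oxidase, was at 13.81, 13.51, 10.94 and 10.01 in IL1B mice 1 to 4, high in the same mice as the neutrophil markers, and was not called in the fit of all 8 arrays (log2 fold change 1.83, adjusted p = 0.165).

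**Figure D5:**
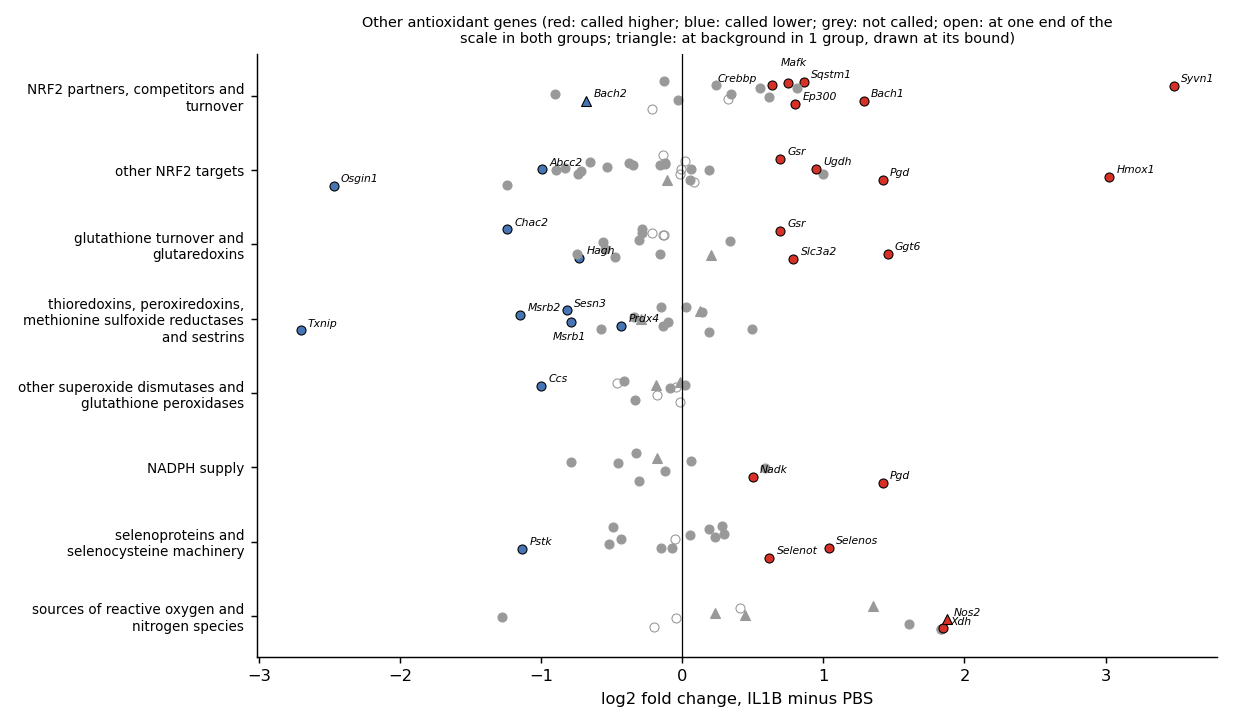
Log2 fold change (IL1B minus PBS) of the measured genes of 8 antioxidant pathway lists, 1 point per gene (red called higher, blue called lower, grey not called, open at one end of the scale in both groups). Triangles are genes at background in 1 group, drawn at the bound, such as Nos2. The 5 called genes in the thioredoxin list lie left of 0, and the 6 higher genes of the NRF2 partner list lie right of it.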

How the data were processed

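The authors extracted liver RNA from 8 mice and hybridized it to MoGene 2.0 ST arrays. They deposited log2 RMA values, made with Affymetrix Power Tools (GC correction where offered, scaled intensity, background correction, normalization between arrays), with no version given in the sources used here. RMA may remove part of a global difference between groups. Array medians were 5.64 to 5.76, and the number of arrays limits the precision. Of 41345 features, 23525 had 1 gene symbol in the platform annotation and were averaged to 22184 genes. Features with several symbols (1816) or none (16004) were not used.

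Groups came from the titles. limma 3.58.1 (R 4.3.3; lmFit, eBayes) was fitted to all 8 arrays with group as the factor and Benjamini-Hochberg adjustment over all genes, a procedure tested on simulated data. The p-values refer to the spread among these 8 mice. For 6 pairs of genes, within-mouse differences were tested by exact permutation of the labels (two-sided, 70 assignments) and adjusted over the pairs. Saturated means within 1 log2 unit of the ceiling on each array of a group. At background means not above the brightest background control feature (6.65 to 7.08) on each of them, and fold changes of such genes are bounds ("at least"). The members and lists were chosen with earlier results of these data known. Named genes were the members, their pair partners, the strain markers and, of each list, up to 4 genes with the highest and lowest log2 fold changes among called genes, filled up by size. Gsr, Txn1, Mafk, Prdx4, Cybb, Cyba, Rac2, Nox4, Ly6g, Ccr2 and the genes at background were named after their values were seen. Promoter windows came from RefSeq (9 of 10 members matched), and the variant element spelling was added after the windows were seen. Other settings tried were median centring, quantile normalization, the brightest feature per gene, adding features with several symbols, leaving out dim genes, array weights, eBayes with trend and robust options, a replicate block, the 0.15 cutoff and leaving out each array in turn. Leaving out the 2 IL1B arrays with the highest leukocyte markers was added after seeing the data.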

Additional observations from a re-analysis of the deposited data

Results flagged for a closer look

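A single mouse stood far from the others of its group in 2 of the 40 groups of 4 values checked, where chance gives about 1 in 20. The groups were PBS and IL1B for 9 members (without Cat), 3 pair partners, 2 strain markers and the 6 within-mouse differences. For Nqo1 the value of IL1B mouse 4, 7.96, lay above the other IL1B mice, with a gap that took up 0.880 of the group's range. That mouse was still within the range of the PBS mice. For Gpx1 the value of PBS mouse 2, 18.41, lay above the other PBS mice, with a gap of 0.838 of the range, although the whole group had an SD of 0.03.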

How the results depend on the processing

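The calls of Txnrd1, Srxn1 and Sod2 held in all 8 other settings of the fit, with log2 fold changes of 1.61 to 1.70, 1.02 to 1.22 and 1.19 to 1.27, and in each of the 8 fits that left out 1 array. Deviations of same-numbered PBS and IL1B mice had correlations of -0.07, 0.22, 0.05 and 0.12, against -0.19 to 0.08 for different numbers. Correlations this small cannot decide whether the numbers pair the mice. With the replicate number as a block, Nfe2l2 alone among the members changed its call, at the same log2 fold change of 0.70 (adjusted p = 0.0467, against 0.0759 to 0.282 when 1 array was left out). At an adjusted p of 0.15, 1 member was lower, and among all genes 2634 were higher and 2593 lower, against 1594 and 1180 at 0.05. Of the pathway genes, 26 were then higher and 26 lower, against 17 and 12. Quantile normalization gave 19 lower pathway genes, moved the all-gene counts to 1367 higher and 1524 lower, and turned the small shift between Gpx1 and Gpx4 to 0.017. Median centring gave 1783 higher and 903 lower. Leaving out 1 array gave 676 to 1073 lower genes in the whole table (677 without PBS mouse 1, 782 without PBS mouse 3, 676 without IL1B mouse 1) and 7 to 12 lower pathway genes (7 without PBS mouse 1). Without IL1B mice 1 and 2, 1030 genes were higher and 530 lower, with 12 and 7 in the pathway, a fit with fewer samples. The causes of the other shifts were not tested. Of 288 alternative counts for single lists, 232 were within 1.5 times the reported count. Saturation leaves Cat unmeasured and limits Gpx1 and Sod1, and the arrays do not show NRF2 protein.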
